A study of Mus musculus with 8 samples.

Results

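Fibroblast growth factors (FGFs) and the proteins that receive them were followed through 4 h of induced ERK signalling in mouse epiblast, the tissue of the early embryo that forms the body. The set held 10 genes of the 52636 in the deposited count table: the ligands Fgf4, Fgf5, Fgf8, Fgf10 and Fgf15, the receptors Fgfr1, Fgfr2, Fgfr3 and Fgfr4, and Klb, the co-receptor β-klotho. They were listed by symbol and looked up through their Ensembl identifiers, and all 10 were among the 18321 genes that passed the filter on low counts. The genes were chosen by their measured count differences between 4-hydroxytamoxifen (4OHT) and vehicle libraries in each clone, so the members' own responses, and the difference of those responses between clones, are given as a description. Where a member is said to be called there, this states only on which side of the threshold used for all genes its value lay, and it supports nothing.

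The samples were epiblasts of embryonic day 5.5 embryos of the genotype Sox2Cre;CRAFR26, in which a tamoxifen-inducible cRAF construct activates ERK. Sox2Cre is a Cre driver of the epiblast. Every group carried this genotype, and no library lacked the construct. The mouse line came from embryonic stem cells injected into morulas, and the labels name 2 clones, clone 4 and clone 8. Embryos were cultured in IVC2 medium with 250 nM 4OHT or with ethanol vehicle for 4 h, the extraembryonic layers were cut away, and 10 epiblasts were pooled for each library, with 7 ng of RNA. Vehicle libraries are titled as 0 h but labelled as treated with vehicle for 4 h; if the 0 h is right, each comparison of 4OHT with vehicle also includes 4 h of culture. There were 2 libraries in each of 4 groups, vehicle and 4OHT in clone 4 and in clone 8. No label ties libraries of a group to separate litters, so p-values measure the spread between these pools.

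FGF ligands bind receptor tyrosine kinases at the cell surface, with heparan sulfate as a cofactor, and the activated receptor signals through the adaptor FRS2 and through RAS, RAF and MEK to ERK. In the early embryo Fgf4 is made by the pluripotent epiblast and signals to the primitive endoderm and to the extraembryonic ectoderm, whose cells carry Fgfr2. Fgf5 is a classic marker of the post-implantation epiblast, and Fgf8 is made in the primitive streak and in visceral endoderm. Fgf15 is an endocrine ligand that binds poorly to heparan sulfate and acts in the liver through Fgfr4 with β-klotho.

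Library totals were 33.3 M to 38.0 M counts (M, mega) in vehicle and 56.4 M to 72.5 M in 4OHT, so depth did not overlap between the conditions. Between the replicates of a group the counts differed by more than sampling noise in every group, the chi-square statistic being 20.9 to 61.1 times its degrees of freedom. The defining epiblast markers Pou5f1, Sox2, Otx2 and Utf1 had at least 518 counts in every library. Markers of the tissues removed by dissection were also present: none of the 18 visceral endoderm and none of the 13 extraembryonic ectoderm markers was at 0 counts in any library. The defining visceral endoderm markers Afp, Ttr, Amn and Hnf4a had at least 77 counts in each. Of the defining extraembryonic ectoderm markers, Cdx2 and Elf5 had at least 589 counts and Esx1 5 to 117. Of the 6 decidual markers, the defining Prl8a2 and Hand2 reached at most 9 counts and 1 count, and Prl3c1 and Hoxa11 at most 2 and 4, while Hoxa10 had 14 to 128 and Pgr 113 to 285.

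Per length of exon, Fgf5 was the most abundant of the 10 genes. Levels are given here as RPKM, counts per kilobase of exonic length, scaled to library size. In the vehicle libraries Fgf5 stood at 81.9 ± 11.7 RPKM (SD, n = 4), Fgf8 at 32.4 ± 31.0, Fgf15 at 18.9 ± 2.85 and Fgf4 at 10.0 ± 2.49. The receptors followed, with Fgfr1 at 5.46 ± 1.13, Fgfr4 at 3.45 ± 1.62 and Fgfr2 at 1.49 ± 0.461 RPKM (SD, n = 4 each). Fgf10 stood at 1.47 ± 0.742, Fgfr3 at 0.796 ± 0.293 and Klb at 0.592 ± 0.233 RPKM (SD, n = 4 each). In this order the ranges of neighbours overlapped except between Fgf15 and Fgf4 and between Fgf4 and Fgfr1. The RPKM order after 4OHT was the same but for Fgfr4, which at 6.89 ± 0.670 stood above Fgfr1 at 5.42 ± 0.747 (SD, n = 4 each), with ranges that overlapped.

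**Figure D1:**
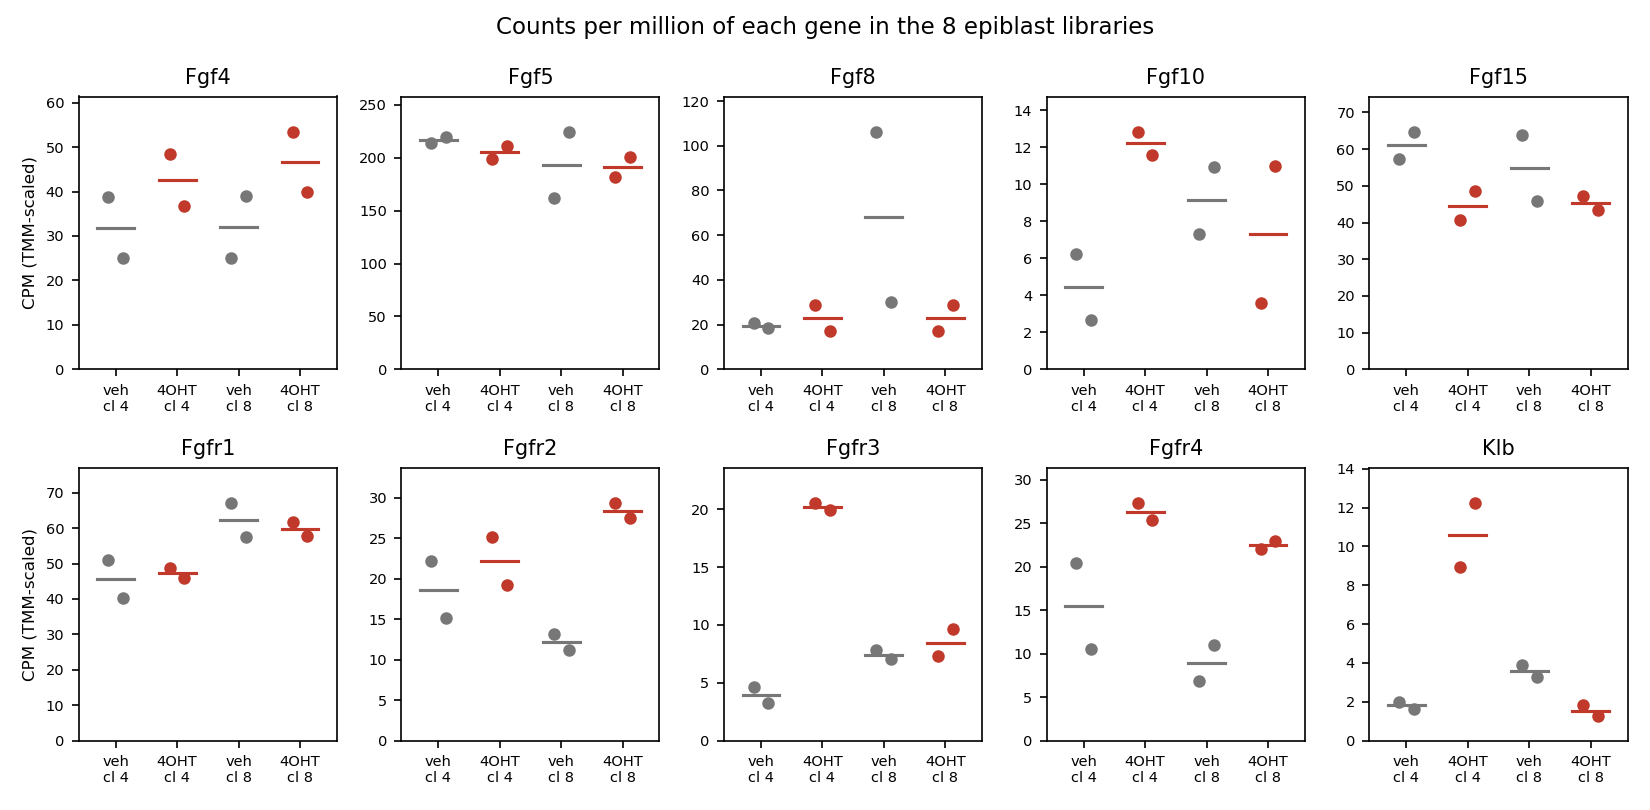
CPM (counts scaled to a common library size with TMM factors) of each of the 10 genes in the 8 libraries; each point is 1 library, grey for vehicle and red for 4OHT, the horizontal line is the mean of the 2 libraries of a group, and each panel has its own axis from 0. Fgfr3 and Klb were highest in the 4OHT libraries of clone 4, Fgf8 in 1 vehicle library of clone 8, and Fgfr4 was higher in every 4OHT library than in every vehicle library.

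Among the ligands, none was called in either clone, where a call means that edgeR's quasi-likelihood test, adjusted over all genes, gave a p under 0.05. DESeq2 called Fgf10 in clone 4, and edgeR without the filter on low counts called Fgf10 in clone 4 and Fgf4 and Fgf8 in clone 8. Without vehicle clone 8 replicate 2, edgeR called Fgf8 in clone 8. From here on levels are CPM on the TMM-scaled library size and differences are log2 fold changes from the fit. Fgf5 had the smallest log2 differences of the 5 ligands. It stood at 213.7 and 219.9 CPM in vehicle and at 199.1 and 211.6 CPM in 4OHT libraries of clone 4. In clone 8 it stood at 161.6 and 224.4 CPM in vehicle and at 181.9 and 201.02 CPM after 4OHT. Its log2 differences were -0.08 (SE 0.15) in clone 4, where the 4OHT libraries lay just below the vehicle ones, and -0.01 (SE 0.15) in clone 8, where they overlapped.

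Fgf4, the epiblast's signal to its neighbours, lay somewhat higher after 4OHT in each clone. Its clone 4 libraries went from 38.7 and 25.03 to 48.5 and 36.7 CPM, so that the ranges overlapped. Those of clone 8 went from 25.1 and 38.95 to 53.4 and 39.9 CPM, with the 4OHT libraries just above the vehicle ones. The log2 differences were 0.42 (SE 0.28) in clone 4 and 0.54 (SE 0.28) in clone 8.

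Fgf15 lay lower after 4OHT. In clone 4 it stood at 57.4 and 64.7 CPM in vehicle and at 40.8 and 48.5 CPM after 4OHT, a log2 difference of -0.45 (SE 0.18) with no overlap. Clone 8 had 63.8 and 45.8 CPM and then 47.2 and 43.5 CPM, a log2 difference of -0.27 (SE 0.18), and the groups overlapped. Exons of Fgf15 share 761 bases with those of the antisense gene Gm26793, which had 48 to 148 counts, against 1520 to 3488 for Fgf15. The use of strand in the counting is not given in the sources used here.

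Fgf8 was decided by 1 library. It stood at 20.5 and 18.4 CPM in vehicle and 28.8 and 17.1 CPM in 4OHT libraries of clone 4, a log2 difference of 0.24 (SE 0.50) that turned to -0.19 without 4OHT clone 4 replicate 1. In clone 8 the vehicle libraries stood at 106 and 30.04 CPM and the 4OHT libraries at 17.03 and 28.7 CPM, a log2 difference of -1.57 (SE 0.51). Without vehicle clone 8 replicate 1, which held the 106 CPM, that log2 difference was -0.42. The 6 primitive streak markers summed to 83.7 CPM in this library and to 48.2 CPM in the other vehicle library of clone 8. They summed to 95.7 CPM in 4OHT clone 4 replicate 1 and to 109 CPM in 4OHT clone 8 replicate 2, the highest sums. Fgf8 stood there at 28.8 and 28.7 CPM. As a mean log2 CPM the 6 markers ordered the libraries otherwise. That mean was 3.08 in vehicle clone 8 replicate 1 and 1.56 in vehicle clone 8 replicate 2. It was 1.98 in 4OHT clone 4 replicate 1 and 3.53 in 4OHT clone 8 replicate 2. Over the 8 libraries its Pearson r with Fgf8 was 0.62. The part of these markers in the Fgf8 level was not tested.

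Fgf10, a ligand best known from limb and lung buds, was the scarcest ligand of the set. It stood at 6.21 and 2.65 CPM in vehicle and at 12.8 and 11.6 CPM in 4OHT libraries of clone 4, with no overlap and a log2 difference of 1.46 (SE 0.53). That difference was 2.21 without vehicle clone 4 replicate 1 and 0.98 without vehicle clone 4 replicate 2. In clone 8 it stood at 7.33 and 10.94 CPM and then at 3.58 and 10.995 CPM, a log2 difference of -0.33 (SE 0.52). The sign in clone 8 turned to 0.27 without 4OHT clone 8 replicate 1.

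The calls fell on receptors and on Klb. In clone 4, 2 of the 10 genes were called, both higher, Fgfr3 and Klb, where 0.0382% of all tested genes were called. In clone 8, 3 of the 10 were called, Fgfr2 and Fgfr4 higher and Klb lower, where 16.6% of all tested genes were called. The list was chosen with these comparisons in view, so the counts are a description. The 4OHT and vehicle libraries did not overlap for 6 of the 10 genes in clone 4, against 47.6% of all tested genes, and for 5 of the 10 in clone 8, against 60.0%.

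Fgfr1, the main FGF receptor of the epiblast, hardly differed with 4OHT. In clone 4 it stood at 51.0 and 40.4 CPM in vehicle and at 48.8 and 45.99 CPM after 4OHT, a log2 difference of 0.05 (SE 0.16). Clone 8 had 67.0 and 57.5 and then 61.7 and 57.7 CPM, a log2 difference of -0.06 (SE 0.16). Its libraries separated by clone instead, as given below.

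Fgfr2, the receptor of the extraembryonic ectoderm, was higher after 4OHT in clone 8. It stood there at 13.1 and 11.2 CPM in vehicle and at 29.3 and 27.5 CPM after 4OHT, a 2.33-fold difference on a log2 scale of 1.22 (SE 0.23). Clone 4 had 22.1 and 15.2 and then 25.1 and 19.2 CPM, a log2 difference of 0.25 (SE 0.23), with overlapping groups. The annotation places 314 bases of Fgfr2 exons within exons of Ctbp2, which had 58.6 to 113 CPM, so some reads could belong to either gene.

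Fgfr4, the receptor best known in liver and endoderm, was the 1 gene of the 10 that was higher in each 4OHT library than in every vehicle library, where 9.00% of all tested genes had all 4OHT libraries on one side of all vehicle libraries. Its clone 4 libraries went from 20.4 and 10.6 to 27.3 and 25.4 CPM, a log2 difference of 0.76 (SE 0.31). In clone 8 it went from 6.88 and 10.996 to 22.03 and 22.96 CPM, a 2.52-fold difference, or 1.33 on the log2 scale (SE 0.32). Its call was in clone 8; the difference of the responses was 0.57 on the log2 scale (SE 0.44) and was not called.

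Fgfr3, another FGF receptor, was higher after 4OHT in clone 4. It stood there at 4.65 and 3.27 CPM in vehicle and at 20.5 and 19.9 CPM after 4OHT, a 5.09-fold difference, or 2.35 on the log2 scale (SE 0.25). Clone 8 had 7.80 and 7.05 and then 7.29 and 9.64 CPM, a log2 difference of 0.19 (SE 0.24), and the groups overlapped. The difference of the responses, clone 8 minus clone 4, was -2.16 (SE 0.35) on the log2 scale.

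Klb, which lets FGF receptors bind the endocrine ligands, moved in opposite directions in the clones. In clone 4 it stood at 1.98 and 1.64 CPM in vehicle and at 8.95 and 12.2 CPM after 4OHT, a 5.84-fold difference, or 2.55 on the log2 scale (SE 0.32). The counts behind these values were 74 and 55 in vehicle and 499 and 879 after 4OHT. In clone 8 it stood at 3.87 and 3.28 CPM in vehicle and at 1.83 and 1.25 CPM after 4OHT, which is 2.32-fold lower, or -1.21 on the log2 scale (SE 0.31). The groups did not overlap in either clone, in opposite order, as was so for 13.1% of all tested genes. The difference of the responses was -3.76 (SE 0.44) on the log2 scale. Fgfr3 and Klb were the 2 of the 10 genes called for that difference, both lower in clone 8, where 2.83% of all tested genes were called, 1.75% lower and 1.08% higher.

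**Figure D2:**
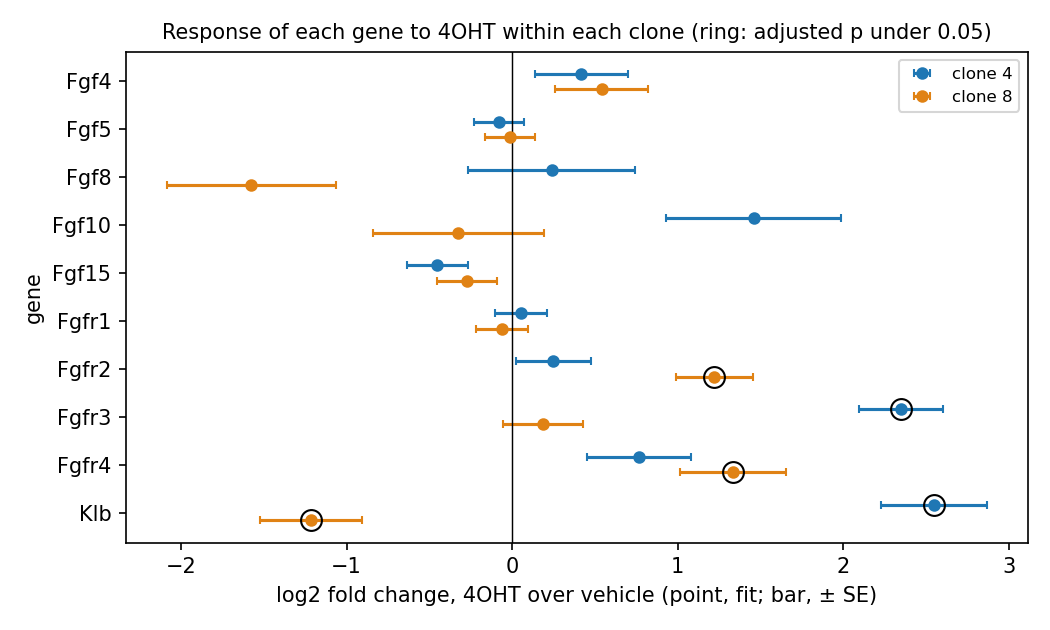
Log2 fold change of 4OHT over vehicle for each of the 10 genes within clone 4 (blue) and clone 8 (orange); points are the fitted values, bars ± SE, and rings mark an adjusted p under 0.05 over all genes. Klb lay at 2.55 in clone 4 and at -1.21 in clone 8, while Fgf5 and Fgfr1 lay near 0 in both.

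These calls depended on single libraries more than the sizes did. In clone 4 the calls of Fgfr3 and Klb were kept without either 4OHT library of clone 8. They were lost in the fits without any 1 of the other 6 libraries, with log2 differences of 2.12 to 2.63 for Fgfr3 and 2.30 to 2.75 for Klb over all 8 such fits. In clone 8 all 3 calls were lost without vehicle clone 8 replicate 1, and those of Fgfr2 and Klb without vehicle clone 8 replicate 2. Klb was also not called there without 4OHT clone 4 replicate 2 or 4OHT clone 8 replicate 2. The log2 differences over these fits were 1.08 to 1.31 for Fgfr2, 1.01 to 1.67 for Fgfr4 and -1.52 to -0.97 for Klb. The calls of Fgfr3 and Klb for the difference of the responses were lost without vehicle clone 8 replicate 1 and without any 1 library of clone 4.

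Markers of the dissected tissues were read beside these receptors. In bulk tissue, fewer cells of a type and less RNA per cell cannot be told apart. The visceral endoderm, the epithelium around the epiblast, was read by 18 markers. They summed to 1016 and 639 CPM in vehicle and to 2973 and 3328 CPM in 4OHT libraries of clone 4, a ratio of 3.81 between the means. In clone 8 they summed to 2236 and 2218 CPM in vehicle and to 548 and 1470 CPM after 4OHT, which is 2.21-fold lower. Of the 18 markers, 18 had a positive log2 difference in clone 4, with a median of 1.92, and 17 a negative one in clone 8, with a median of -1.21. Over all tested genes these medians were -0.005 and 0.07. In clone 4 none of the 18 was called by edgeR and 9 by DESeq2. There, 17 stood at an unadjusted p under 0.05, as did 9.90% of all tested genes. In clone 8, 7 were called lower, as were 8.60% of all tested genes. For the difference of the responses, clone 8 minus clone 4, 11 of the 18 were called lower, with a median of -3.05 on the log2 scale. Of all tested genes, 1.75% were called lower for it. Klb was also higher after 4OHT in clone 4 and lower in clone 8, and Fgfr3 was higher in clone 4. In clone 8, where the marker sum was lower after 4OHT, Fgfr3 was not, at 7.43 ± 0.533 CPM in vehicle and 8.46 ± 1.67 CPM after 4OHT (SD, n = 2 each). Fgf10 per 1000 CPM of this sum lay between 3.28 and 7.48 in the 8 libraries. The part of this tissue in the differences of these genes was not tested. Per 1000 CPM of the visceral endoderm sum, Klb stood at 1.95 and 2.56 in vehicle and 3.01 and 3.67 in 4OHT libraries of clone 4. In clone 8 that ratio was 1.73 and 1.48 in vehicle and 3.34 and 0.851 after 4OHT.

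The extraembryonic ectoderm, the trophoblast-derived tissue next to the epiblast, was read by 13 markers. They summed to 839 and 545 CPM in vehicle and to 692 and 714 CPM after 4OHT in clone 4. In clone 8 they summed to 222 and 272 CPM in vehicle and to 832 and 695 CPM after 4OHT, a ratio of 3.09 between the means. Of the 13 markers, 10 were called higher in clone 8, where 8.00% of all tested genes were called higher. Fgfr2 and Fgfr4 were higher in the same libraries, and the part of the tissue in their differences was not tested. The Fgfr2 level per 1000 CPM of this sum was 26.4 and 27.9 in vehicle and 36.3 and 26.9 in 4OHT libraries of clone 4, and in clone 8 it was 59.1 and 41.3 and then 35.2 and 39.5. For Fgfr4 the same ratio was 24.3 and 19.4 and then 39.4 and 35.5 in clone 4, and 31.1 and 40.4 and then 26.5 and 33.04 in clone 8.

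**Figure D3:**
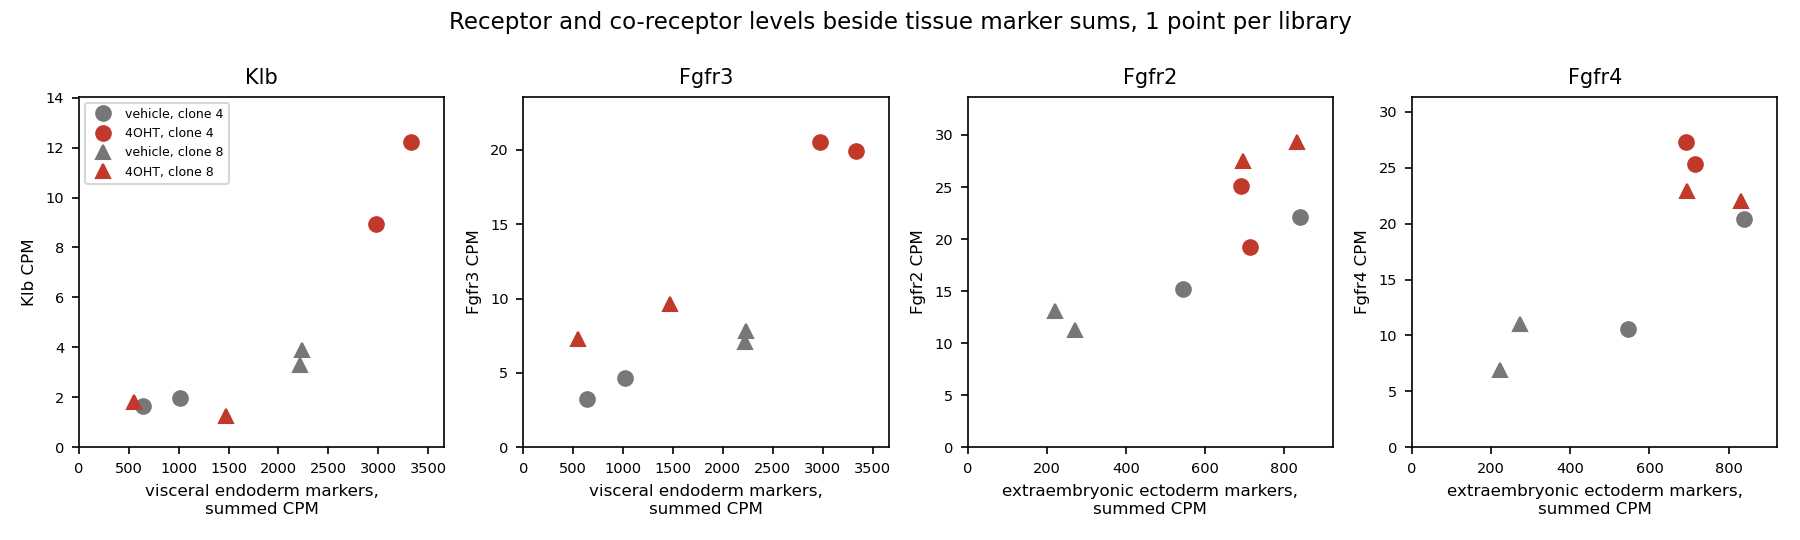
CPM of Klb and Fgfr3 against the summed CPM of 18 visceral endoderm markers, and of Fgfr2 and Fgfr4 against that of 13 extraembryonic ectoderm markers; each point is 1 library, circles for clone 4, triangles for clone 8, grey for vehicle and red for 4OHT. The 2 4OHT libraries of clone 4 had both the highest visceral endoderm sums, 2973 and 3328 CPM, and the highest Klb and Fgfr3.

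The 12 markers of the epiblast itself summed to 5978 to 6311 CPM in the vehicle and to 5188 to 5742 CPM in the 4OHT libraries, without overlap. Their median log2 difference was -0.20 in clone 4 and -0.53 in clone 8. In clone 8 Pou5f1, Sox2, Pou3f1 and Utf1 were called lower, 4 of 12, where 8.60% of all tested genes were called lower. In clone 4, 0 of the 12 were called by edgeR and by DESeq2, with 4 at an unadjusted p under 0.05.

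The clones were then compared over both conditions, a contrast balanced for treatment and so not the one by which the genes were chosen. None of the 10 genes passed the threshold in edgeR's quasi-likelihood test, where 0.115% of all tested genes were called. There were 4 members at an unadjusted p under 0.05, as were 24.0% of all tested genes, and DESeq2 called 2, Fgfr1 and Klb. DESeq2 also called far more of all genes in this contrast than edgeR did, as given in the last section. Its 2 calls are therefore not to be set against the 0.115%. Fgfr1 stood at 40.4 to 51.0 CPM in the 4 libraries of clone 4 and at 57.5 to 67.0 CPM in those of clone 8. Its log2 difference, clone 8 minus clone 4, was 0.39 (SE 0.11) with an adjusted p of 0.0817, and 0.0223 by DESeq2. It was the 1 member whose clones did not overlap, against 8.29% of all tested genes. Klb had a log2 difference of -0.90 (SE 0.22) with an adjusted p of 0.0633, and 0.00712 by DESeq2. This average joins opposite orders: Klb stood higher in clone 8 in vehicle, at 3.58 against 1.81 CPM, and lower after 4OHT, at 1.54 against 10.58 CPM (means, n = 2 each). For the other 8 genes the adjusted p was 0.169 to 0.871, and the log2 difference ran from -0.51 for Fgfr4 to 0.90 for Fgf8.

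Promoters are shown for the receptor and co-receptor genes that were called in either clone, 250 bases before the start site to 50 after it, from RefSeq on GRCm38.p6. Capitals mark each CG dinucleotide, the site of DNA methylation. Fgfr3 is shown by the more upstream of its 2 listed starts. The annotated span of Fgfr2, given next, reaches far upstream of the start shown. All its annotated exons set the length used for the Fgfr2 RPKM. In GENCODE M21 the genes span chr5:65348314-65384007 for Klb (ENSMUSG00000029195), chr5:33721674-33737068 for Fgfr3 (ENSMUSG00000054252), chr7:130162451-133123350 for Fgfr2 (ENSMUSG00000030849) and chr13:55152640-55168759 for Fgfr4 (ENSMUSG00000005320).
Klb, chr5:65348161-65348460, plus strand: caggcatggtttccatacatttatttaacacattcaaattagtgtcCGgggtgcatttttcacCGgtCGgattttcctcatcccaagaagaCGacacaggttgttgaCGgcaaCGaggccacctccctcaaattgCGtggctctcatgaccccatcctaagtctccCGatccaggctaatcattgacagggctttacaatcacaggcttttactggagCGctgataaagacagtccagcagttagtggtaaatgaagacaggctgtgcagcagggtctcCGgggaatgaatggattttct
Fgfr3, chr5:33721474-33721773, plus strand: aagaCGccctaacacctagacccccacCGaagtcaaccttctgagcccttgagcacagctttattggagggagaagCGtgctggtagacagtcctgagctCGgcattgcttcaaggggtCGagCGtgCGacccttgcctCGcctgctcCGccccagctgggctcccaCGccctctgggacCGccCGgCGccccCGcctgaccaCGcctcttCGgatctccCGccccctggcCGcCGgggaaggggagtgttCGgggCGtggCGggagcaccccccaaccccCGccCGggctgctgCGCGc
Fgfr2, chr7:130266759-130267058, minus strand: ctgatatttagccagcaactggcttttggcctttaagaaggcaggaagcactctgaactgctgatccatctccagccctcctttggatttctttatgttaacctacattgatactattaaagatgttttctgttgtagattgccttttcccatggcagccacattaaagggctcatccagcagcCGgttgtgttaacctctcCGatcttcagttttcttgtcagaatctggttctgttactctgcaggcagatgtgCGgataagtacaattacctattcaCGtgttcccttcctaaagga
Fgfr4, chr13:55152568-55152867, plus strand: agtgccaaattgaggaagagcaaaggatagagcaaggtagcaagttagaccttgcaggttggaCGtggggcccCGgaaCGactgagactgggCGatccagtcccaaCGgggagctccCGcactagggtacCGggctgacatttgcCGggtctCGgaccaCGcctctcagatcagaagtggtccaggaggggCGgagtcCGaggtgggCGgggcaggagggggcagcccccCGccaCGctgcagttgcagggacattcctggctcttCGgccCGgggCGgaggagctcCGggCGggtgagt
These windows hold 10 CG dinucleotides for Klb, 26 for Fgfr3, 4 for Fgfr2 and 20 for Fgfr4. The median over 32851 promoters of this length was 7, with quartiles of 3 and 20. CCGGAAGT, the consensus of the ETS factors through which ERK acts on many genes, was searched on both strands. It was in 0 of the 8 promoters listed for 7 of the 10 genes, against 3.89% of all promoters, which says only that these letters are not in these windows.

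The genes on which the ligands and receptors depend were read from lists that hold none of the 10 members. These lists and the tissue marker lists above were chosen with earlier results of these data known. Their counts of calls and adjusted p-values are therefore given as a description, also where a share of all genes stands beside them. In clone 4 no gene of the 5 lists was called by edgeR; at an unadjusted p under 0.05 stood 9.90% of all tested genes in clone 4 and 33.2% in clone 8. In clone 8, 4 of the 12 adaptors that carry the receptor signal were called higher and none lower, where 8.00% of all tested genes were called higher. Frs2, the docking protein of the FGF receptors, had 25.1 ± 10.2 CPM in vehicle and 64.8 ± 5.97 CPM in 4OHT libraries (SD, n = 2 each). It rose by 1.37 on the log2 scale (SE 0.24, edgeR adjusted p 0.0113). Gab1, a scaffold for phosphatase and lipid kinase signalling, had 36.2 ± 16.3 CPM and then 104 ± 1.37 CPM (SD, n = 2 each), a rise of 1.52 on the log2 scale (SE 0.29, adjusted p 0.0129). The other calls were Crkl (0.95, adjusted p 0.0119) and Shc1 (0.51, adjusted p 0.0289), both adaptors. The vehicle libraries of clone 8 were the low ones: Frs2 stood at 69.5 ± 4.59 CPM and Gab1 at 97.7 ± 28.5 CPM in vehicle libraries of clone 4 (SD, n = 2 each). The extraembryonic ectoderm sum given above was also low in those vehicle libraries, and its part in these changes was not tested. The median log2 difference of the 12 adaptors was 0.43 in clone 8 and -0.04 in clone 4, against 0.07 and -0.005 over all tested genes. None of the 12 was called in clone 4 by edgeR or DESeq2, with 0 at an unadjusted p under 0.05.

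Among 9 receptor partners and ligand binding proteins, of which 8 were tested, Kl and Fgfbp1 were called higher in clone 8. Of all tested genes, 8.00% were called higher there. Kl encodes α-klotho, the relative of β-klotho that serves the endocrine ligand FGF23. It had 7 and 6 counts in the vehicle and 151 and 97 in the 4OHT libraries of clone 8, or 0.195 and 0.181 against 2.42 and 1.62 CPM. Its log2 difference was 3.41 (SE 0.58, adjusted p 0.0109). In clone 4 it stood at 2.11 and 1.22 CPM in vehicle and at 1.18 and 0.598 CPM after 4OHT, with a log2 difference of -0.91 (adjusted p 0.619). The difference of the responses was 4.32 (SE 0.77, adjusted p 0.0331), so that Kl and Klb differed between the clones in opposite directions. Fgfbp1, a secreted carrier of FGFs, had 14.1 ± 1.31 CPM in vehicle and 26.3 ± 2.90 CPM in 4OHT libraries of clone 8 (SD, n = 2 each), a rise of 0.90 on the log2 scale (SE 0.18, adjusted p 0.0149). Its clone 4 libraries had 31.9 ± 2.77 CPM in vehicle and 37.2 ± 4.52 CPM after 4OHT (SD, n = 2 each). For Kl and Fgfbp1 the vehicle libraries of clone 8 were thus the low ones. The extraembryonic ectoderm sum was also low there, and its part in these differences was not tested. In clone 4, 0 of the 8 were called by edgeR and 0 by DESeq2, with 1 at an unadjusted p under 0.05.

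Of 17 other FGF ligands, 11 passed the filter and 1 was called in clone 8, no larger a share than the 16.6% of all tested genes. It was Fgf13, which encodes an intracellular member of the family that is not secreted. Its level in clone 8 was 6.79 ± 0.569 CPM in vehicle and 11.98 ± 0.804 CPM after 4OHT (SD, n = 2 each), a rise of 0.82 on the log2 scale (SE 0.21, adjusted p 0.0299). In clone 4, 0 of the 11 were called by edgeR or DESeq2, with 0 at an unadjusted p under 0.05. All 17 together summed to 18.03 to 28.4 CPM over the 8 libraries.

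Heparan sulfate genes were called in both directions in clone 8, 1 higher and 3 lower of 19, where 8.00% of all tested genes were called higher and 8.60% lower; a share this near the background is no result about the list. Ext1, a polymerase of the chain, had 23.5 ± 4.17 CPM in vehicle and 9.40 ± 2.25 CPM after 4OHT (SD, n = 2 each), a difference of -1.32 on the log2 scale (SE 0.23, adjusted p 0.0110). Hs2st1, a sulfotransferase (-0.98, adjusted p 0.0343), and Gpc1, a glypican core protein (-1.13, adjusted p 0.0353), were also lower. For Ext1, Hs2st1 and Gpc1 the vehicle libraries of clone 8 were the highest of all. Hs2st1 stood there at 17.9 and 14.6 CPM and Gpc1 at 20.3 and 11.1 CPM. In vehicle libraries of clone 4, Ext1 stood at 11.4 and 12.4 CPM, Hs2st1 at 9.31 and 8.48 CPM and Gpc1 at 6.79 and 7.32 CPM. Glce, an epimerase, was higher after 4OHT by 0.78 (adjusted p 0.0464). Its vehicle libraries of clone 8 were the lowest, at 19.7 and 21.1 CPM, against 33.9 and 42.0 CPM in vehicle libraries of clone 4. In clone 4, 0 of the 19 were called by edgeR or DESeq2, with 7 at an unadjusted p under 0.05.

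Genes that answer FGF signalling were read by 11 genes. In clone 8 Egr1 (5.25, adjusted p 0.00834), Spry4 (0.91, adjusted p 0.0213) and Dusp6 (0.79, adjusted p 0.0200) were called higher and Spred1 lower (-0.58, adjusted p 0.0460), 3 and 1 of 11, where 8.00% of all tested genes were called higher and 8.60% lower. Egr1, an immediate early gene of ERK signalling, differed widely between the 4OHT libraries of clone 8, at 74.7 and 379 CPM, against 5.77 and 6.12 CPM in vehicle. The vehicle libraries of clone 8 were the highest of all for Spred1, at 41.3 and 35.4 CPM, against 21.3 and 19.6 CPM in those of clone 4. For Spry4 and Dusp6 they were the lowest of all. In clone 4, 0 of the 11 were called by edgeR, with 3 at an unadjusted p under 0.05 and 2 called by DESeq2. There, 9 of the 11 log2 differences were positive, with a median of 0.15 and a range of -0.18 to 2.32. Egr1 stood at 8.05 and 18.2 CPM in vehicle and at 55.4 and 75.9 CPM in 4OHT libraries of clone 4. Dusp4 stood at 43.1 and 49.7 CPM and then at 75.2 and 107 CPM. All of the calls of these 5 lists in clone 8 were lost without vehicle clone 8 replicate 1, where 0 genes of the whole table were called. In the fit of clone 8 alone all of them were lost too. Glce also lost its call with RLE factors and Spred1 without the filter on low counts. Among the fits without 1 library, Kl, Frs2, Gab1, Crkl, Ext1, Spry4 and Egr1 lost the call only without vehicle clone 8 replicate 1. Fgfbp1 lost it also without vehicle clone 8 replicate 2 and Dusp6 without 4OHT clone 8 replicate 2, while Fgf13, Shc1, Glce, Hs2st1, Gpc1 and Spred1 lost it without any 1 library of clone 4 as well, among others. For the difference of the responses, edgeR called Kl, Crkl (1.17, adjusted p 0.0447) and Ext1 (-1.504, adjusted p 0.0470) of the 61 tested genes of these lists. Of all tested genes, 2.83% were called for it, and a share this near the background is no result about the lists. Ext1 lost this call with the replicate block. The calls of Kl, Crkl and Ext1 were lost without vehicle clone 8 replicate 1 and without any 1 library of clone 4. Those of Kl and Ext1 were also lost without vehicle clone 8 replicate 2.

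**Figure D4:**
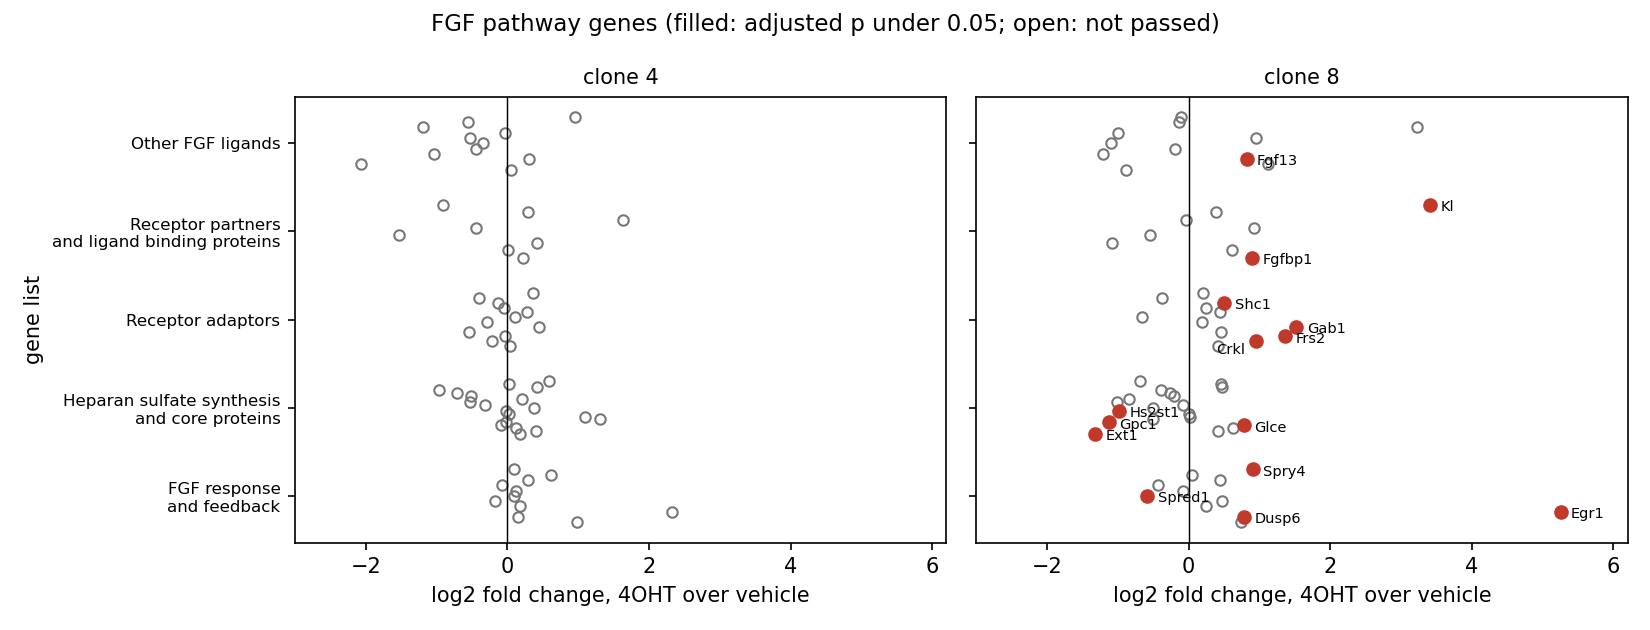
Log2 fold change of 4OHT over vehicle for the tested genes of 5 FGF pathway lists in clone 4 (left) and clone 8 (right); each point is 1 gene, filled and named where the adjusted p was under 0.05. Filled points occur in clone 8 alone, with Egr1 at 5.25 and Kl at 3.41 the farthest to the right.

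For 9 of the 10 members the genes with the most similar log2 CPM over the 8 libraries were looked up among 9142 genes above the median level. With 8 libraries and so many candidates, high correlations are easily found, and these are given as a description. Klb was most like Adora2b and Mpv17 (Pearson r 0.991 and 0.987), Fgfr3 like Zfp956 and Rdh10 (0.975 and 0.972). Fgfr2 was most like Rbms1 and Wwp1 (0.987 and 0.970), and Fgfr4 like Chpf and Llgl2 (0.986 and 0.984). Of the ligands, Fgf10 was most like Porcn and Hkdc1 (0.993 and 0.984), Fgf8 like Churc1 and Nrm (0.970 and 0.968), and Fgf15 like Car14 and Cyp39a1 (0.961 and 0.951). The lowest values belonged to Fgf5, with Helb and Ercc4 (0.938 and 0.932), and Fgf4, with Tldc1 and Lrrc14 (0.932 and 0.928).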

How the data were processed

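RNA was measured in 8 libraries. The authors deposited raw read counts per Ensembl gene, 1 column per library, as the file header and the whole-number values show. Per the submitters' processing notes, bcl2fastq 2.19.1, STAR 2.5.3a and the build mm10 were used; the counting program, annotation and use of strand are not given in the sources used here. Of 52636 identifiers, 52403 had a symbol; the other 233 held at most 0.0325% of a library's counts. The filter filterByExpr (4 groups, minimum count 10) left 18321 genes, which were scaled by TMM and fitted with 1 coefficient per group in edgeR 4.0.16 (R 4.3.3; estimateDisp, glmQLFit, glmQLFTest), with Benjamini-Hochberg adjustment over all tested genes. A standard error is the log2 difference divided by the square root of F. Log2 CPM used a prior count of 2. Exonic lengths and coordinates are from GENCODE M21 (GRCm38, the build mm10). Alternatives were RLE factors, no filter, DESeq2 1.42.0, a replicate block, counts thinned to 33.3 M (M, mega), 1 clone alone, an additive fit, and leaving out each library.

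The members, the gene lists and the rule for similar genes were chosen with earlier results of these data known. The rule named all 10 members; for each, the 2 most correlated genes above the median log2 CPM of 2.87, leaving out Y-linked genes and Xist (those of Fgfr1 are not reported here); and genes of the pathway lists that were called. Primitive streak, parietal endoderm, decidua and blood markers were also read. Of these, edgeR called 1 within a clone, the parietal endoderm marker Sparc, lower in clone 8. Primitive streak markers summed to 31.6 to 109 CPM, decidual markers to 2.39 to 6.30 CPM, parietal endoderm markers to 140 to 309 CPM and blood markers to 0.128 to 15.7 CPM.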

Additional observations from a re-analysis of the deposited data

Results flagged for a closer look

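Vehicle clone 8 replicate 1 stood apart from the other vehicle libraries for 2 of the genes, with Fgf8 at 106 CPM, far above the rest, and Fgf5 at 161.6 CPM, far below. The extraembryonic ectoderm markers summed to 832 CPM in 4OHT clone 8 replicate 1, above the other 4OHT libraries, and the epiblast markers to 6311 CPM in vehicle clone 4 replicate 2, above the other vehicle libraries. In all, 28 sets of 4 libraries were examined and 4 held such a library; chance flags about 1 in 20.

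The response to 4OHT differed between the clones, clone 8 minus clone 4, by -2.16 on the log2 scale for Fgfr3 and by -3.76 for Klb. These values are a description, since the genes were chosen with that contrast in view. Of the 18 visceral endoderm markers, edgeR called 11 lower for that contrast, against 1.75% of all tested genes. Of the pathway lists, Kl (4.32), Crkl (1.17) and Ext1 (-1.504) passed an adjusted p of 0.05 for that contrast in edgeR's quasi-likelihood test over all genes. So did 2.83% of all tested genes.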

How the results depend on the processing

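The counts of calls moved far more with the processing than the log2 differences did. Within clone 4, 7 genes were called; the count was 728 without the filter, 455 by DESeq2, 56 in thinned counts, 197 in the fit of clone 4 alone and 0 with the replicate block, where 0 of the 10 members were called in place of 2. Leaving out 1 library gave 0 to 267 genes and 0 to 2 members. Within clone 8, 3041 genes and 3 members were called; the fit of clone 8 alone gave 3 genes and 0 members, and without the filter 5 members were called. Leaving out 1 library gave 0 to 3179 genes and 0 to 3 members. For the difference of the responses, 519 genes and 2 members were called; without the filter these were 2114 and 5, and by DESeq2 1756 and 4. Leaving out 1 library gave 0 to 1205 genes and 0 to 3 members. Between the clones, 21 genes and 0 members were called; without the filter these were 2394 and 4, by DESeq2 2087 and 2, in thinned counts 373 and 1, with the replicate block 571 and 0, and in the additive fit 0 and 0. Leaving out 1 library gave 0 to 1758 genes and 0 to 1 member. The causes were not tested. Leaving out a library leaves 1 sample in its group, which is then assumed to vary like the other groups.

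Fitted log2 differences of the members kept their sign in 138 of 140 recomputed values within clone 4, 134 of 140 within clone 8, 121 of 130 for the difference of the responses and 131 of 140 between the clones. Between the clones the sign turned when 1 library was left out for Fgf4 (-0.11 to 0.23), Fgf10 (-0.37 to 0.52), Fgf15 (-0.20 to 0.039) and Fgfr2 (-0.26 to 0.012). No pairing of the samples by replicate number was seen. The deviations of same-numbered libraries from their group means had correlations of -0.0298 to 0.0947 over the 6 pairs of groups. The highest was between vehicle and 4OHT of clone 4. Such correlations do not show that a pairing was absent. Depth limited Klb most, with 55 to 879 counts per library.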
